A study of Mus musculus with 21 samples.

Results

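Tumours grown from Py117 cells were compared with Py117 cells kept in culture, on 5 tumour and 3 culture arrays, which are 8 of the 21 arrays of a study of mouse mammary carcinoma. Py117 is a clonal cell line from the MMTV-PyMT model, in which the promoter of the mouse mammary tumour virus drives polyomavirus middle T antigen in the mammary epithelium, so tumours and cultures share this origin and stand for 1 line. For the tumours, 1000000 cells in 50% PBS and 50% Matrigel, an extract of basement membrane, were implanted into mammary fat pad number 4. Tumours and cells were untreated, and the tumours were taken on the day on which others would have been irradiated. The cultures grew in Ham's F12K medium with 5% fetal serum. Strain and age of the hosts are not given in the sources used here. Tumours (5 arrays) and cultures (3 arrays) of a second clone of the same model, Py8119, were handled in the same way and serve below only to test where the Py117 difference is of another size. All 22180 genes with a probe set of their own were compared, and every value is a log2 signal, so a difference of 1 is 2-fold.

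A cell line in culture is 1 cell type with plentiful serum, oxygen and nutrients, on plastic. The same cells in a fat pad grow among vessels, fibroblasts, fat and immune cells of the host, and the RNA of a whole tumour mixes all of these. Macrophages and fibroblasts are known as abundant host cells of PyMT mammary tumours, and interferons released by immune cells switch on a shared set of genes in nearly every cell type they reach. A gene that is silent in culture and high in the tumour may therefore come from host cells or have been turned on in the tumour cells, and whole-tumour arrays cannot tell apart these, nor fewer cells of a type from less RNA per cell.

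The 5 tumours correlated with each other at r = 0.970 to 0.990 and the 3 cultures at 0.991 to 0.994, against 0.912 to 0.938 between a tumour and a culture, over genes of the same arrays. The median SD of a gene was 0.20 among the tumours and 0.13 among the cultures. Tumour 3 stood most apart. Among the 1331 genes at least 2-fold higher in tumours, described next, it was the highest tumour for 350 and the lowest for 475. Replicates are labelled as biological replicates, and nothing in the labels gives a batch, so any batch between tumours and cultures cannot be told apart from the sample type.

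Tumours and cultures differed at 6811 of 22180 genes (30.7%) at a limma adjusted p under 0.05. Of these, 2759 were higher in tumours (12.4% of all genes) and 4052 lower (18.3%). All 5 tumours lay above all 3 cultures at 2978 genes (13.4%) and below them at 4911 (22.1%). A difference of at least 2-fold narrowed the calls to 1331 higher (6.00%) and 788 lower genes (3.55%), so decreases were more numerous and more often small. The split by direction depended on scaling. Higher genes made up 40.5% of the calls as deposited, 22.6% when each array was centred on its median and 50.6% when it was centred on genes expressed in every group. The median gene differed by -0.09 as deposited, by -0.25 under the first centring and by -0.02 under the second. Changes near this size have no settled direction.

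To separate what the cultured cells already expressed from what they did not, olfactory and vomeronasal receptor genes, which mammary cells are not known to use, served as a measure of background. The 1394 receptor genes had a median culture mean of 3.32, with a 95th percentile of 5.38 and a 99th of 6.44. Of the 1331 genes at least 2-fold higher in tumours, 511 were at background in culture (below the 95th percentile), 460 lay between the percentiles and 360 were clearly expressed (above the 99th). As shares of all genes in the same range these were 5.85% of 8734, 11.1% of 4133 and 3.87% of 9313. Of the 788 lower genes, 744 were clearly expressed in culture (7.99% of the range), 33 lay between the percentiles (0.798%) and 11 were at background (0.126%), where little room is left to fall. The limit is not sharp. Slc26a7 (culture mean 5.37) fell just inside background and Inpp5d (5.38) just outside. Of the 246 measured marker genes of other cell types, 116 were below the 95th percentile, 101 between and 29 above the 99th, so a gene between the percentiles can also be one that mammary cells do not normally make.

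**Figure D1:**
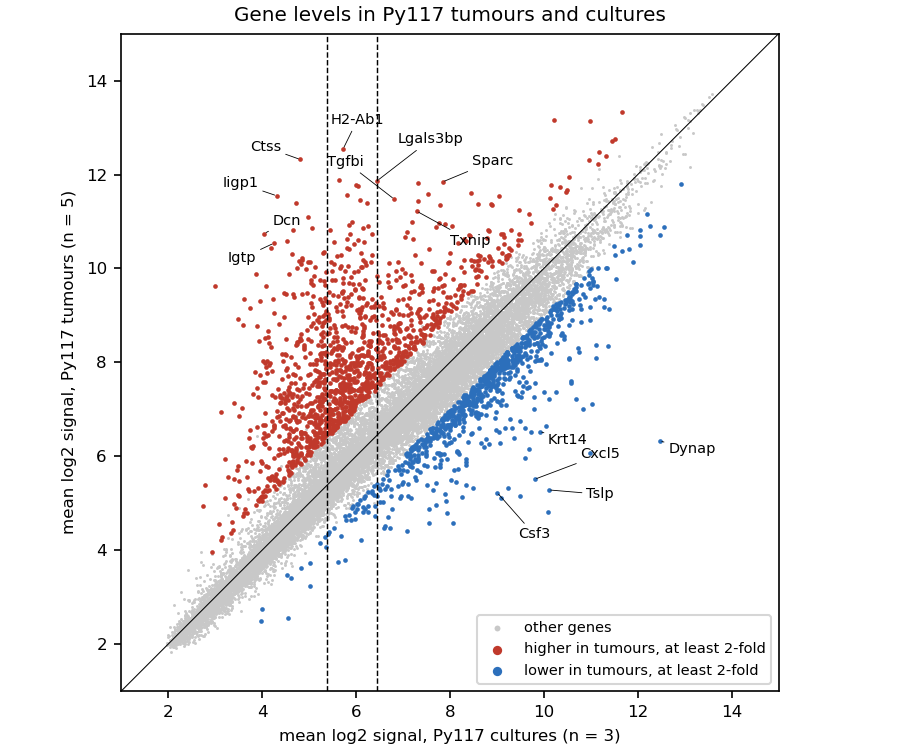
Mean log2 signal over the 5 Py117 tumours (vertical axis) against the mean over the 3 Py117 cultures (horizontal axis), 1 point per gene for 22180 genes; genes higher or lower at an adjusted p under 0.05 and at least 2-fold are coloured, and dashed vertical lines mark the receptor-gene limits at 5.38 and 6.44. Of 1331 higher genes, 511 lie left of the first line; of 788 lower genes, 744 lie right of the second.

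Genes of immune cells were among the largest increases, beside interferon, fibroblast and matrix genes. Ctss, which encodes the lysosomal protease cathepsin S of antigen-presenting cells, had 11.90, 12.07, 12.55, 12.56 and 12.53 in the tumours, against 4.77, 4.57 and 5.09 in the cultures. Every tumour lay far above every culture, a 182-fold difference against a background value (log2 difference 7.51 ± 0.19, adjusted p = 4.1e-09; here and below ± is the standard error of a difference, with n = 5 tumours and 3 cultures). H2-Ab1, a chain of the MHC class II molecule that presents antigen to helper T cells, had 12.23, 12.13, 12.59, 12.91 and 12.86 in the tumours, against 5.44, 5.77 and 5.95 in the cultures (log2 difference 6.82 ± 0.20, adjusted p = 7.57e-09), again with no overlap. C1qb, a chain of complement C1q made chiefly by macrophages, had 11.84, 11.90, 12.04, 11.74 and 11.88 in the tumours, against 5.93, 5.32 and 5.68 in the cultures (log2 difference 6.23 ± 0.14, adjusted p = 3.28e-09). Among the 12 largest increases from background were also the myeloid genes Lilrb4a (6.67 ± 0.16), an inhibitory receptor, Ms4a6d (6.64 ± 0.20), Ly86 (6.17 ± 0.20), a partner of a Toll-like receptor relative, Cybb (6.10 ± 0.17), a subunit of the phagocyte oxidase, and Mpeg1 (5.81 ± 0.22), a pore-forming protein of macrophages.

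All 13 measured genes common to leukocytes rose, with a median difference of 3.09 beside -0.09 over all genes. Their mean signal was 8.63, 8.74, 9.26, 9.09 and 9.12 in tumours 1 to 5, against 5.70, 5.64 and 5.76 in the cultures. Ptprc, the CD45 phosphatase, rose by 5.27 ± 0.20, Cd53, a tetraspanin, by 5.27 ± 0.23, Cd52, a surface glycoprotein of leukocytes, by 4.95 ± 0.20, and Lcp1, an actin bundler, by 4.65 ± 0.17. Of 27 macrophage and monocyte genes 25 rose and none fell (median 3.62); the exceptions were Arg1 and Cd14. Lyz2, lysozyme of myeloid cells, was at 11.38 to 11.82 in the tumours and 5.72 to 5.90 in the cultures (log2 difference 5.76 ± 0.13, adjusted p = 3.28e-09). Arg1, the arginase of some macrophages, varied among tumours (5.89, 6.83, 6.51, 5.63 and 9.41, against 4.87, 5.07 and 5.13 in the cultures) and did not pass (adjusted p = 0.0676). It passed without tumour 4 (adjusted p = 0.0456), tumour 5 (0.00706) or tumours 1, 4 and 5 together (0.000234). Array weights (0.0256), 1 fit of all 21 arrays (0.00961) and a replicate block (0.0016) also let it pass, and the other alternatives did not. Cd14, a lipopolysaccharide receptor, was already clearly expressed in culture, at 9.56 ± 0.24 in the tumours and 9.85 ± 0.23 in the cultures (SD).

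The lymphocyte signal was smaller and less even. Of 17 T cell genes 14 rose (median 1.23), with list means of 6.55, 6.37, 6.62, 7.48 and 7.14 in tumours 1 to 5, against 5.26, 5.23 and 5.34 in the cultures. Cd3g, a chain of the T cell receptor complex, had 7.43, 6.89, 7.21, 9.08 and 8.29 in the tumours, against 3.91, 4.04 and 4.37 in the cultures (log2 difference 3.67 ± 0.42, adjusted p = 8.06e-05), and tumours 4 and 5 were highest. Il7r, the receptor for the survival cytokine interleukin 7, rose by 3.55 ± 0.38, Cd3e, another chain of the complex, by 2.68 ± 0.38, and Thy1, which fibroblasts also express, by 2.58 ± 0.12. Of 17 genes of cytotoxic and natural killer cells 13 rose and 1 fell (median 1.69). The granule protease Gzma rose by 2.89 ± 0.40 and the receptors Klrd1 and Klrk1 by 2.89 ± 0.42 and 2.70 ± 0.33; the list means were highest in tumours 3 and 4, at 7.32 and 7.25.

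Dendritic cell genes rose at 11 of 15 and fell at 1 (median 0.83). With tumours 2 and 3 alone, a pair set apart below by its adipocyte genes, 7 rose. Itgax, the CD11c integrin, rose by 3.98 ± 0.29 and Irf8, a transcription factor of dendritic cells and monocytes, by 2.06 ± 0.20. Neutrophil genes showed a mixed picture, with 5 of 17 higher and 2 lower (median 0.14, which changes sign between scalings). Leaving out tumour 4, culture 1 or culture 3 left 3 higher. Csf3r, the receptor for granulocyte colony-stimulating factor, rose by 1.61 ± 0.19, whereas the granule gene Ltf, which mammary epithelium also makes, fell (-1.33 ± 0.38), a call lost without tumour 4, culture 1 or culture 2. S100a9, a defining neutrophil gene, averaged 5.35 ± 0.33 in the tumours and 5.21 ± 0.29 in the cultures (SD). B and plasma cell genes rose at 3 of 13 (median 0.06, also of unsettled sign). These were Xbp1, which many secretory cells express (1.04 ± 0.14), the heavy chain gene Ighm (0.88 ± 0.23; not past the threshold without culture 2) and the receptor Cd22 (0.71 ± 0.12).

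Fibroblast and matrix genes formed the other large group. Dcn, which encodes the collagen-binding proteoglycan decorin, had 10.27, 11.24, 11.06, 10.72 and 10.43 in the tumours, against 4.17, 4.09 and 3.87 in the cultures (log2 difference 6.70 ± 0.21, adjusted p = 1.27e-08). Collagen I genes lay between the percentiles of receptor genes in culture (means 6.07 for Col1a1 and 5.84 for Col1a2) and were far higher in the tumours. Col1a1 had 10.70, 11.90, 12.01, 11.34 and 11.38 in the tumours, against 6.24, 5.95 and 6.02 in the cultures (log2 difference 5.39 ± 0.26, adjusted p = 1.61e-07), Col1a2 rose by 5.09 ± 0.30 and Col3a1, collagen III, by 5.37 ± 0.28. Of 22 fibroblast genes 19 rose and none fell, each of the 19 at least 2-fold (median 3.29). Their list means were 8.82, 9.79, 9.44, 8.87 and 9.03 in tumours 1 to 5, against 5.81, 5.79 and 5.85 in the cultures. Tumours 2 and 3 had the highest means.

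Of 26 genes of basement membrane and collagens 19 rose and 2 fell. Nid1, a basement membrane linker that was at background in culture, rose by 6.25 ± 0.25, and Eln, elastin, by 4.36 ± 0.40. Mgp, an inhibitor of calcification, and Col12a1, a collagen of fibril surfaces, were clearly expressed in culture and rose by 4.12 ± 0.18 and 2.89 ± 0.36. Both decreases were in basement membrane genes that epithelium is known to make, Lama5 (-0.82 ± 0.16) and Col18a1 (-0.64 ± 0.17), the second of which did not pass without culture 2 or culture 3. Proteases and inhibitors divided, 9 higher and 6 lower of 20. The metalloproteases Mmp2 and Mmp13 rose by 5.02 ± 0.35 and 2.18 ± 0.29, while the urokinase receptor Plaur (-2.64 ± 0.18) and the secreted protease Adamts1 (-2.25 ± 0.16) fell.

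Endothelial genes were higher in every tumour. Of 22 endothelial genes 18 rose and none fell (median 2.25), with list means of 7.42 to 8.17 in the tumours and 5.59 to 5.69 in the cultures. Emcn, a sialomucin of capillaries and veins, had 9.54, 9.41, 8.67, 8.97 and 8.62 in the tumours, against 4.02, 4.51 and 4.26 in the cultures (log2 difference 4.78 ± 0.22, adjusted p = 1.44e-07). Cdh5, the cadherin of endothelial junctions, rose by 4.57 ± 0.18, Cd34 by 4.14 ± 0.12 and Eng, a TGF-beta co-receptor, by 3.61 ± 0.13. Vwf, the von Willebrand factor, differed by 0.36 and did not pass. Of 13 genes of pericytes and smooth muscle 10 rose, led by Rgs5 (5.37 ± 0.42), a regulator of G-protein signalling in pericytes, and Pdgfrb (3.49 ± 0.16), their growth factor receptor. Lymphatic markers were fewer, with 3 of 6 higher. Lyve1, which macrophages also carry, rose by 2.72 ± 0.30, and Prox1, the lymphatic master regulator, was at background in both groups (4.26 to 4.41 in the tumours and 4.51 to 4.77 in the cultures). Its small difference (log2 difference -0.30 ± 0.10, adjusted p = 0.0494) lost its call under quantile normalization, under centring on genes expressed in every group and without tumour 1, 2 or 5 or any 1 culture.

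Adipocyte genes as a list separated the tumours. Their list means were 8.89, 6.56, 6.63, 8.09 and 8.94 in tumours 1 to 5, against 5.54, 5.44 and 5.60 in the cultures, so tumours 1, 4 and 5 were well above tumours 2 and 3. Fabp4, a fatty acid carrier of adipocytes and endothelium, had 11.29, 7.66, 7.35, 10.33 and 11.53 in the tumours, against 4.00, 4.23 and 4.03 in the cultures (log2 difference 5.55 ± 0.90, adjusted p = 0.000848). Adipoq, the adipocyte hormone adiponectin, had 6.85, 4.14, 4.66, 5.85 and 7.45 in the tumours, against 4.23, 4.42 and 4.53 in the cultures, with tumours 2 and 3 near the cultures (adjusted p = 0.13, and 0.0304 without tumour 2). Thrsp, a lipogenic gene of the same list, did not follow this split. It had 10.85, 10.50, 10.44, 10.69 and 10.55 in the tumours (log2 difference 4.57 ± 0.19). Of 15 adipocyte genes 7 rose. Without tumour 2 it was 14 and without tumour 3 it was 12, while leaving out tumour 5 or any 1 culture gave 4. Tumours 2 and 3 alone also gave 4. That pair was set apart for its low adipocyte list means, so the count is not a separate test of this list. Mast cell genes moved in the same tumours, with list means of 6.03, 4.81, 4.66, 5.61 and 6.09 in tumours 1 to 5, against 4.41, 4.30 and 4.44 in the cultures. Cpa3, the mast cell carboxypeptidase, had 9.71, 6.79, 5.46, 9.17 and 8.80 in the tumours, against 4.37, 3.92 and 4.19 in the cultures (log2 difference 3.83 ± 0.82, adjusted p = 0.00443). Of 13 mast cell and eosinophil genes 4 rose, and 2 without tumour 4, tumour 5 or any 1 culture. The part of adjoining fat tissue in these values was not tested. Lists of other neighbouring tissues did not rise in this way. Of 15 skeletal muscle genes none rose and 2 fell, of 13 skin genes none rose and 3 fell (1 without tumour 1, 2 or 5 or without culture 1 or 3), and 1 of 7 nerve genes rose. Over all genes 12.4% were higher and 18.3% lower, so the lower muscle and skin counts and the nerve count are near those shares. The skin genes that fell include Krt14, a keratin of basal cells that the cultured cells expressed (culture mean 9.91). Neither of the 2 red cell genes measured passed.

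**Figure D2:**
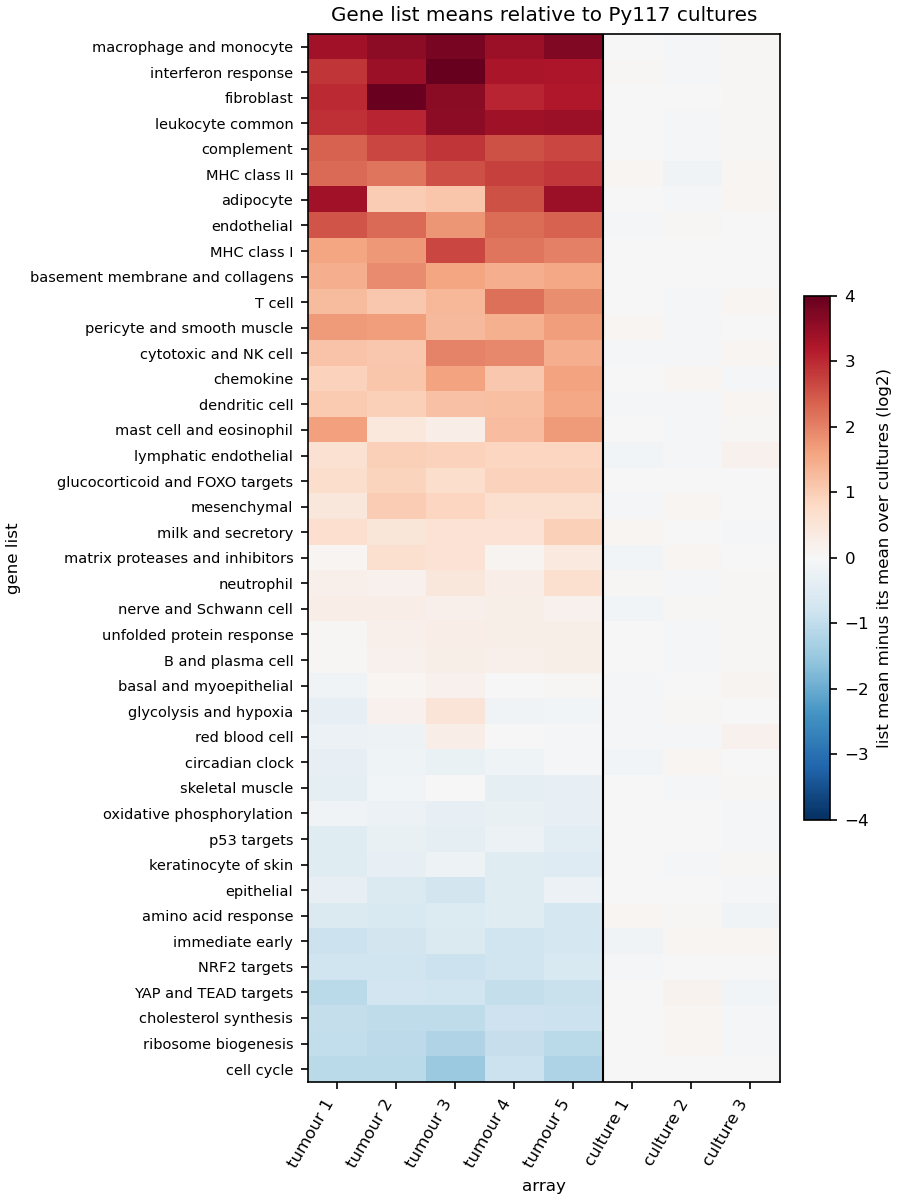
Mean log2 signal of each gene list in each array minus its mean over the 3 cultures, 1 row per list and 1 column per array, tumours 1 to 5 left of cultures 1 to 3. Leukocyte, macrophage, fibroblast and interferon lists are high in every tumour, adipocyte and mast cell lists are high in tumours 1, 4 and 5, and cell cycle and ribosome biogenesis lists are low in every tumour.

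Interferon-responsive genes rose together, and most were low in culture. Igtp, a GTPase of the immunity-related family that acts on vacuoles of intracellular parasites, had 9.64, 10.42, 11.81, 10.55 and 10.26 in the tumours, against 4.47, 4.42 and 3.83 in the cultures (log2 difference 6.29 ± 0.38, adjusted p = 9.51e-07). Its relative Iigp1 had 10.72, 11.35, 12.41, 11.71 and 11.55 in the tumours, against 4.15, 4.51 and 4.26 in the cultures (log2 difference 7.24 ± 0.30, adjusted p = 5.84e-08). Both had no overlap between groups, and tumour 3 was the highest for both. Of 29 measured genes of the interferon list 28 rose and none fell, 27 of them at least 2-fold (median 3.27). In culture 7 of the 29 were at background, 13 between the percentiles and 9 clearly expressed. List means were 8.79, 9.34, 10.30, 9.17 and 9.15 in tumours 1 to 5, against 5.95, 5.85 and 5.95 in the cultures, with tumour 3 the highest and tumour 1 the lowest.

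Among members made chiefly in response to type I interferon, Ifit1, which binds viral RNA, rose by 5.18 ± 0.34, Oasl2, an oligoadenylate synthetase relative, by 5.07 ± 0.20, and Irf7, the factor that amplifies interferon production, by 5.04 ± 0.26. Among those driven strongly by interferon gamma, the T cell attractant Cxcl9 had 10.52, 11.78, 12.76, 12.18 and 11.64 in the tumours, against 5.59, 6.40 and 6.01 in the cultures (log2 difference 5.78 ± 0.40, adjusted p = 2.57e-06), with the range of tumours wide but above all cultures. Parts of the signalling machinery above the 99th percentile of receptor genes in culture rose as well, Stat2 only just above it (culture mean 6.48 against 6.44). Stat2, the signal transducer of type I interferon, had 9.22, 9.60, 10.56, 9.47 and 9.66 in the tumours, against 6.49, 6.60 and 6.34 in the cultures (log2 difference 3.22 ± 0.25, adjusted p = 5.35e-06), and Ifih1, a sensor of double-stranded RNA, rose by 3.41 ± 0.22. Bst2, a surface protein that tethers viruses, averaged 11.59 ± 0.49 in the tumours and 7.53 ± 0.18 in the cultures (SD; log2 difference 4.06 ± 0.25, adjusted p = 9.29e-07).

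Many of these genes hold in their promoters the interferon-stimulated response element, a short sequence known from interferon-responsive promoters. The 5 stretches below, 60 bases each from RefSeq promoter windows on GRCm38.p6 and written 5′ to 3′ on the gene's own strand, are shown because these genes were low in culture and high in every tumour. Capitals mark the core that was searched on both strands, GAAA followed by any 2 bases and a second GAAA, so overlapping matches run together. They lie at chr19:34640760-34640819 (plus strand, Ifit1), chr3:142559974-142560033 (plus strand, Gbp3), chr11:58199497-58199556 (plus strand, Igtp), chr4:156200862-156200921 (minus strand, Isg15) and chr5:92349068-92349127 (minus strand, Cxcl10).
Ifit1: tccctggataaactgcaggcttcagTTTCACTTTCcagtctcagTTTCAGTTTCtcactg
Gbp3: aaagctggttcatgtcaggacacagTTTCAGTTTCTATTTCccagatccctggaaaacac
Igtp: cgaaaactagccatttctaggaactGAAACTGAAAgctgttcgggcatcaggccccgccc
Isg15: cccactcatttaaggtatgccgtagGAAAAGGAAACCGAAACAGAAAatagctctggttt
Cxcl10: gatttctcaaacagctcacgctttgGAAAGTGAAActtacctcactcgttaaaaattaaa
The first match lies at position -104 of Ifit1, -45 of Gbp3, -34 of Igtp, -78 of Isg15 and -213 of Cxcl10 relative to the annotated start. The windows of Ifit1 and Gbp3 hold 2 matches each, and that of Isg15 holds 3.

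The core was present in the promoter window, from 250 bases before to 50 after the start, of 13 of the 22 interferon genes with a window (59.1%), against 657 of 16990 genes tested (3.87%). It stood in 98 of 951 genes at least 2-fold higher in tumours (10.3%) and in 17 of 610 at least 2-fold lower (2.79%). Among other lists it was present in 4 of 15 MHC class I genes (26.7%) and in 2 of 20 macrophage and monocyte genes. Of 26 cell cycle genes 1 held it (3.85%), and of 12 fibroblast genes none did. These are counts of letters and not of binding. Ifit3, whose window holds 2 matches, averaged 7.23 ± 0.13 in the tumours and 6.84 ± 0.44 in the cultures (SD) and did not pass (log2 difference 0.39 ± 0.18, adjusted p = 0.126, and 0.0249 in 1 fit of all 21 arrays). The guanylate-binding protein Gbp3 rose by 4.80 ± 0.37, the ubiquitin-like modifier Isg15 by 3.01 ± 0.36 and the chemokine Cxcl10 by 3.55 ± 0.52. The genes differ in how evenly they rose. Cxcl10 had 8.19, 9.38, 11.34, 9.45 and 9.28 in the tumours, against 5.88, 6.12 and 5.92 in the cultures, whereas Isg15 had 8.59, 9.54, 10.54, 8.88 and 9.19 in the tumours, against 6.17, 6.69 and 6.15 in the cultures.

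Antigen presentation rose in both classes. MHC class I serves every nucleated cell, and 13 of its 17 measured genes were clearly expressed in culture. Of the 17, 14 rose at least 2-fold and 1 fell (median 2.33). H2-K1, a heavy chain, had 11.15, 10.89, 12.01, 12.12 and 11.85 in the tumours, against 8.47, 8.53 and 8.37 in the cultures (log2 difference 3.15 ± 0.26, adjusted p = 9.49e-06). Tap1, the peptide transporter, had 10.02, 10.33, 11.59, 10.82 and 10.61 in the tumours, against 6.99, 7.22 and 6.94 in the cultures (log2 difference 3.62 ± 0.29, adjusted p = 5.92e-06), the immunoproteasome subunit Psmb8 rose (adjusted p = 2.06e-05; 9.44 to 10.92 in the tumours and 6.92 to 7.09 in the cultures), and H2-Q4 rose by 3.73 ± 0.37. Heavy chain genes are close copies of each other, so probe sets may not separate them fully. The class I list means were 9.52, 9.68, 10.60, 10.08 and 9.94 in tumours 1 to 5, against 7.92, 7.96 and 7.91 in the cultures, highest in tumour 3 as for the interferon list. In class II, 7 of 10 rose, among them H2-Aa (6.05 ± 0.18), H2-Eb1 (3.86 ± 0.32) and the peptide loader H2-DMa (2.80 ± 0.23). Complement genes rose at 13 of 16, with none lower and none clearly expressed in culture. Besides C1qb these included the C1 inhibitor Serping1 (5.68 ± 0.22), factor B, Cfb (4.02 ± 0.38), and the C3a receptor C3ar1 (3.96 ± 0.18).

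Chemokine genes moved in both directions. Of 31 chemokine genes 17 rose and 4 fell. The increases were led by Cxcl9, by Ccl6 (5.11 ± 0.36) and Ccl8 (4.89 ± 0.36), which attract monocytes and other leukocytes, and by Ccl5 (3.82 ± 0.29), which attracts T cells. All 4 decreases were at least 2-fold, and the largest were in neutrophil attractants that the cultured cells expressed. Cxcl5 had 5.17, 5.36, 5.38, 5.18 and 6.44 in the tumours, against 9.88, 10.18 and 9.35 in the cultures (log2 difference -4.30 ± 0.29, adjusted p = 1.84e-06). Cxcl1 had 6.54, 6.60, 6.90, 6.42 and 6.70 in the tumours, against 10.03, 10.21 and 9.89 in the cultures (log2 difference -3.41 ± 0.13, adjusted p = 4.6e-08). The remaining decreases were Cxcl3 (2.35 to 3.08 in the tumours and 4.53 to 4.58 in the cultures, below the background limit in both), which also acts on neutrophils, and Ccl20 (-1.21 ± 0.16).

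Csf3, which encodes granulocyte colony-stimulating factor, had 5.36, 5.18, 5.37, 5.12 and 5.10 in the tumours, against 9.06, 9.18 and 8.78 in the cultures, so it was expressed in culture and at background on average in the tumours (log2 difference -3.78 ± 0.13, adjusted p = 1.74e-08). Tslp, an epithelial cytokine that acts on dendritic cells and mast cells, had 5.05, 5.13, 6.05, 4.93 and 5.25 in the tumours, against 10.17, 10.26 and 9.87 in the cultures (log2 difference -4.82 ± 0.23, adjusted p = 1.56e-07). Also lost to background were Epgn (-3.48 ± 0.14), a ligand of the EGF receptor, Hhip (-3.92 ± 0.28), a binder of hedgehog ligands, the secreted proteins Bpifb4 (-5.26 ± 0.14) and Bpifb3 (-3.97 ± 0.20), the mitochondrial carrier Slc25a48 (-3.17 ± 0.18) and U90926 (-4.34 ± 0.29). In all 8 genes every tumour lay below every culture, which is part of how they were chosen.

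**Figure D3:**
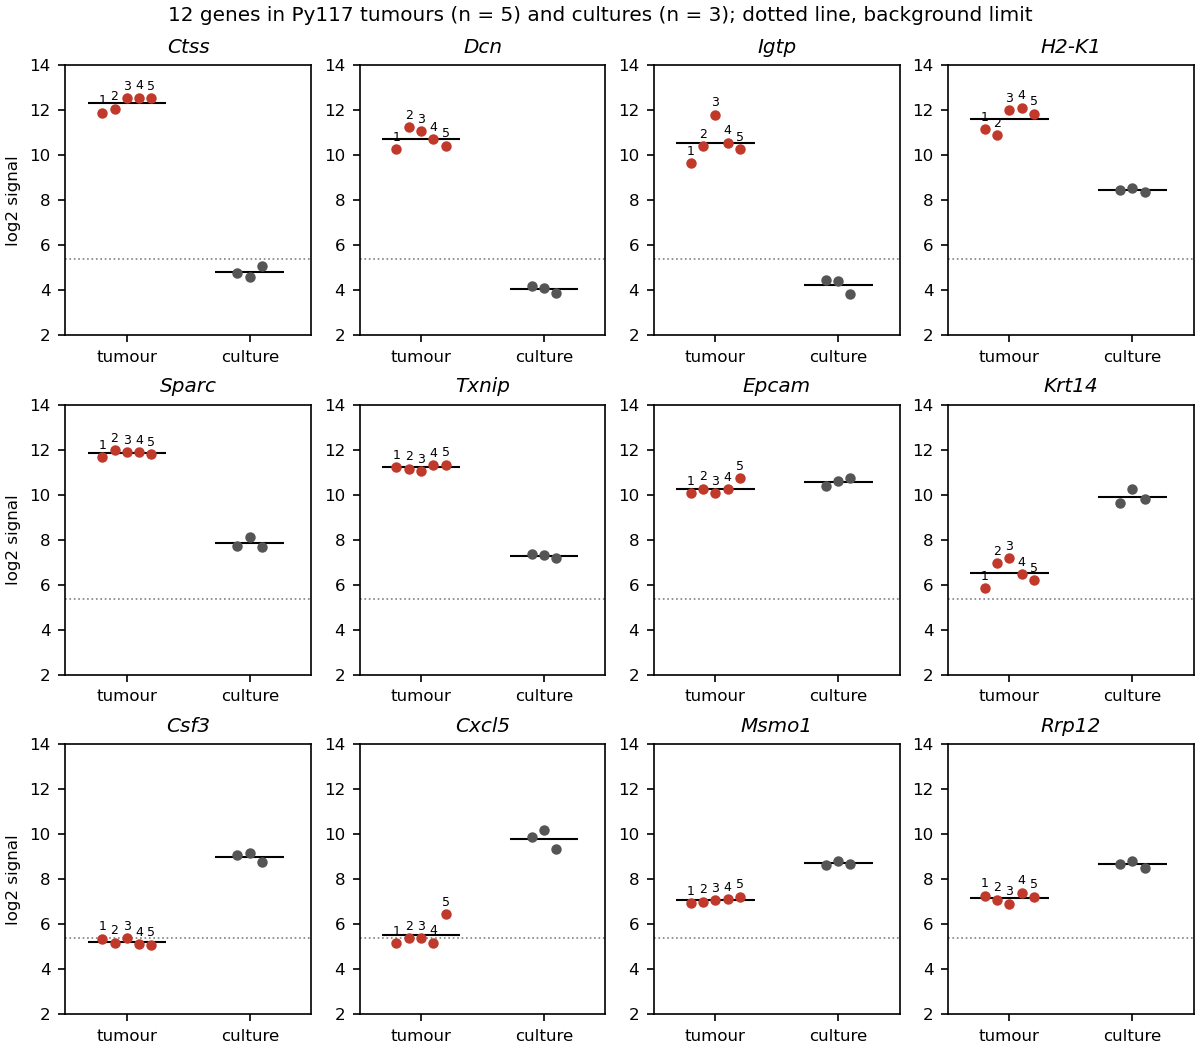
Log2 signal of 12 genes in each array, with the 5 Py117 tumours left and the 3 Py117 cultures right in each panel; points are arrays, numbered by tumour, and bars are group means. The tumours lie above the cultures for Ctss, Dcn, Igtp, H2-K1, Sparc and Txnip and below them for Krt14, Csf3, Cxcl5, Msmo1 and Rrp12, while the groups overlap for Epcam.

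Several large increases were in genes above the 99th percentile of receptor genes in culture, and host cells are known to express most of these as well. Lgals3bp and Acta2 lay only just above that limit, with culture means of 6.45 each against 6.44. Lgals3bp, a secreted galectin-binding glycoprotein, had 11.68, 11.84, 12.32, 11.74 and 11.76 in the tumours, against 6.47, 6.50 and 6.37 in the cultures (log2 difference 5.42 ± 0.15, adjusted p = 6.85e-09). Tgfbi, a matrix protein induced by TGF-beta, averaged 11.48 ± 0.37 in the tumours and 6.81 ± 0.28 in the cultures (SD; log2 difference 4.67 ± 0.21, adjusted p = 1.12e-07), and Sparc, another matrix protein, had 11.66, 11.98, 11.88, 11.91 and 11.79 in the tumours, against 7.72, 8.13 and 7.68 in the cultures (log2 difference 4.00 ± 0.13, adjusted p = 1.74e-08). Postn, periostin of the matrix, rose by 4.50 ± 0.18, and Acta2, the actin of smooth muscle, myofibroblasts and myoepithelium, by 3.40 ± 0.13. Txnip, the arrestin that restrains glucose uptake and is regulated by glucose, had 11.22, 11.15, 11.05, 11.32 and 11.34 in the tumours, against 7.37, 7.32 and 7.20 in the cultures (log2 difference 3.92 ± 0.11, adjusted p = 6.85e-09).

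Genes in the same range with an epithelial or signalling role were Ly6d (3.79 ± 0.19), a surface protein of some epithelial and lymphoid cells, Wif1 (3.42 ± 0.34), a secreted Wnt inhibitor, Smoc1 (3.24 ± 0.21), a calcium-binding matrix protein that modulates BMP signalling, and Egln3 (3.17 ± 0.40), an oxygen-sensing prolyl hydroxylase. Wif1 had 11.24, 10.49, 9.47, 10.98 and 10.92 in the tumours, against 7.55, 7.10 and 6.96 in the cultures, and Smoc1 had 10.45, 10.49, 9.48, 10.03 and 10.18 in the tumours, against 7.06, 6.89 and 6.71 in the cultures, in each case with no overlap. The others were the interferon-responsive Gbp10 (3.68 ± 0.53), the galectin Lgals9 (3.57 ± 0.21), the chemokine Ccl9 (3.21 ± 0.30) and Clec2d (3.19 ± 0.17), a ligand of a natural killer cell receptor. Capn6, a calpain without protease activity, lay between the percentiles in culture and had 11.91, 11.67, 10.81, 12.12 and 12.30 in the tumours, against 6.30, 5.96 and 5.86 in the cultures (log2 difference 5.72 ± 0.29, adjusted p = 2.29e-07).

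The epithelial identity of the line was seen in both settings. Epcam, an epithelial adhesion molecule, had 10.07, 10.27, 10.06, 10.23 and 10.73 in the tumours, against 10.37, 10.61 and 10.76 in the cultures, and its difference did not pass (log2 difference -0.30 ± 0.17, adjusted p = 0.201). Without tumour 5, the highest, it was -0.42 with an adjusted p of 0.0385. Cdh1, E-cadherin, averaged 10.53 ± 0.13 in the tumours and 10.62 ± 0.10 in the cultures (SD), with a difference of -0.10 ± 0.11 whose sign changed when all probe sets were averaged. Of 30 epithelial genes, 26 of which were clearly expressed in culture, 2 rose and 14 fell (median -0.27, and -0.43 to -0.19 over the scalings). List means were 8.42, 8.17, 8.02, 8.27 and 8.50 in tumours 1 to 5, against 8.77, 8.75 and 8.70 in the cultures, with tumour 3 the lowest. Since the tumours hold host RNA, a lower share of tumour cell RNA and a lower level per tumour cell cannot be told apart here.

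Some epithelial genes fell far more than the rest. Krt7, a simple-epithelial keratin, had 6.97, 7.32, 7.40, 6.63 and 6.76 in the tumours, against 10.79, 10.90 and 10.81 in the cultures (log2 difference -3.82 ± 0.18, adjusted p = 1.39e-07). Krt14, the keratin of basal cells, had 5.83, 6.94, 7.17, 6.48 and 6.20 in the tumours, against 9.65, 10.27 and 9.81 in the cultures (log2 difference -3.39 ± 0.28, adjusted p = 8.75e-06). The tight junction genes Cldn3 (-1.74 ± 0.37) and Ocln (-1.70 ± 0.30) fell less, and Krt8 (-0.91 ± 0.19), another simple-epithelial keratin, less again. Ehf, an epithelial transcription factor, was one of the 2 that rose (1.35 ± 0.18). Basal genes divided evenly, 4 higher and 4 lower of 18, beside 12.4% higher and 18.3% lower of all genes, so the lower count is near that share. Besides Acta2, Egfr, the EGF receptor, rose by 1.15 ± 0.13, and Itgb4, an integrin of hemidesmosomes, fell (-1.41 ± 0.14). Of 15 milk and secretory genes 6 rose and 1 fell, Ltf. The milk protein kappa-casein, Csn3, had 9.21, 7.45, 8.71, 8.76 and 9.50 in the tumours, against 5.82, 5.17 and 5.37 in the cultures (log2 difference 3.27 ± 0.38, adjusted p = 9.19e-05), Muc15, a mucin of the milk fat globule, rose by 2.77 ± 0.61 (adjusted p = 0.0819 with tumours 2 and 3 alone), Xdh, xanthine oxidoreductase of milk fat secretion, by 2.14 ± 0.27 and Elf5, the regulator of alveolar cells, by 1.36 ± 0.26. Csn2, beta-casein, differed by 0.27 and did not pass.

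Mesenchymal genes also divided, 9 higher and 6 lower of 20. Besides Tgfbi and Sparc, the collagen crosslinking enzyme Lox rose by 4.20 ± 0.23 and the cadherin Cdh11, which fibroblasts carry, by 3.32 ± 0.32. Cdh2, N-cadherin, had 6.64, 7.80, 7.28, 6.72 and 6.57 in the tumours, against 9.70, 9.85 and 9.81 in the cultures (log2 difference -2.78 ± 0.26, adjusted p = 1.82e-05), and Snai1, a repressor of E-cadherin, fell (-1.24 ± 0.16). Vim, vimentin, did not pass (log2 difference 0.09 ± 0.12, adjusted p = 0.607), and its sign turned under median centring. The largest decreases that stayed above background in the tumours were Dynap (-6.15 ± 0.25), a membrane protein that activates AKT, and Klk10 (-4.92 ± 0.16), a kallikrein. Next came Hmga2 (-3.91 ± 0.21), a chromatin protein of growth and invasion, Id4 (-3.54 ± 0.27), an inhibitor of helix-loop-helix factors, and Gprc5a (-3.47 ± 0.20), an orphan receptor of epithelia. Dynap had 5.86, 6.64, 6.74, 6.64 and 5.75 in the tumours, against 12.19, 12.66 and 12.56 in the cultures, so the tumours scattered widely but all lay below the cultures.

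Growth genes were lower throughout. Of 33 cell cycle genes, all clearly expressed in culture, none rose and 32 fell (median -1.17), the exception being Ccne1 (-0.18). List means were 8.61, 8.62, 8.21, 8.84 and 8.46 in tumours 1 to 5, against 9.72, 9.68 and 9.71 in the cultures. Kif23, a motor of cell division, averaged 8.49 ± 0.34 in the tumours and 10.44 ± 0.04 in the cultures (SD; log2 difference -1.94 ± 0.18, adjusted p = 1.78e-05). The replication factor Cdc6 (-1.75 ± 0.23), the mitotic kinase Plk1 (-1.52 ± 0.13) and the motor Kif20a (-1.51 ± 0.17) followed. Mki67, a proliferation marker, lay at 9.91 to 10.73 in the tumours and 10.96 to 11.14 in the cultures (log2 difference -0.53 ± 0.18, adjusted p = 0.0492), and the call was lost without tumour 1, 2 or 4 or any 1 culture, under quantile normalization (adjusted p = 0.102) and when centred on genes expressed in every group (0.0649).

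Ribosome biogenesis fell at all 23 genes (median -1.04), with list means of 8.55 to 8.84 in the tumours and 9.68 to 9.84 in the cultures. Rrp12, an export factor of ribosomal subunits, had 7.27, 7.09, 6.92, 7.40 and 7.23 in the tumours, against 8.66, 8.80 and 8.50 in the cultures (log2 difference -1.47 ± 0.13, adjusted p = 1.54e-05), and the processing factors of ribosomal RNA Rrp9 (-1.43 ± 0.12), Nop2 (-1.39 ± 0.13) and Bop1 (-1.39 ± 0.13) fell with it. Cholesterol synthesis fell at 18 of 19 genes (median -0.97), with list means of 7.93, 7.88, 7.87, 8.07 and 8.01 in tumours 1 to 5, against 8.86, 8.96 and 8.82 in the cultures. The sterol oxidase Msmo1 averaged 7.07 ± 0.11 in the tumours and 8.70 ± 0.10 in the cultures (SD; log2 difference -1.64 ± 0.11, adjusted p = 1.76e-06). Fdft1, squalene synthase (-1.45 ± 0.14), Cyp51, a sterol demethylase (-1.37 ± 0.16), and Sqle, squalene epoxidase (-1.30 ± 0.12), followed.

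Genes of amino acid supply and redox defence followed. Of 22 amino acid response genes 12 fell and 1 rose. Slc7a11, the cystine importer, had 4.39, 4.19, 4.46, 4.79 and 5.68 in the tumours, against 6.55, 6.65 and 6.85 in the cultures (log2 difference -1.98 ± 0.28, adjusted p = 0.000372). The serine pathway enzymes Psat1 (-1.76 ± 0.18) and Phgdh (-1.46 ± 0.21) and the mitochondrial Shmt2 (-1.40 ± 0.15), which makes glycine, fell with it. Of 16 targets of the oxidative stress factor NRF2 11 fell and 1 rose. They include the glutathione synthesis genes Gclc (-1.58 ± 0.16) and Gclm (-1.53 ± 0.11) and the glutathione transferase Gsta4 (-1.33 ± 0.12). Oxidative phosphorylation genes fell at 7 of 19, by at most -0.64, and at 3 or 4 when any 1 culture was left out. Uqcrc1, of complex III, and Cycs, cytochrome c, had the largest of these differences (-0.64 ± 0.12 and -0.58 ± 0.10).

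Targets of mechanical and early growth signals were mostly lower. Of 18 YAP and TEAD targets 12 fell and 2 rose. Ankrd1, a transcriptional cofactor, had 5.30, 6.23, 6.45, 5.91 and 5.86 in the tumours, against 9.74, 9.78 and 9.27 in the cultures (log2 difference -3.65 ± 0.23, adjusted p = 1.41e-06). Ajuba, an adaptor of the Hippo pathway (-2.89 ± 0.12), the matrix-associated Ccn1 (-1.76 ± 0.19) and the factor Tead4 (-1.58 ± 0.13) fell too. Of 17 immediate early genes, which stimuli such as serum induce within minutes, 13 fell and 2 rose. They include the survival gene Ier3 (-2.10 ± 0.14) and the transcription factors Klf4 (-1.65 ± 0.20), Fosb (-1.30 ± 0.12) and Junb (-1.20 ± 0.18). Of 23 p53 targets 11 fell and 5 rose (3 without culture 3). Gtse1 (-1.55 ± 0.14), which is also a cell cycle gene, the kinase Plk3 (-1.50 ± 0.13) and the death receptor Tnfrsf10b (-1.43 ± 0.11) fell, and Trp53inp1 (1.39 ± 0.17), a proapoptotic stress protein, rose.

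Glycolysis and hypoxia genes did not move as 1 group. Of 21, 5 rose and 9 fell, and 3 rose without culture 1 or culture 2. With tumours 2 and 3 alone, 5 fell. The hypoxia-inducible Egln3 had 10.54, 10.32, 10.63, 10.53 and 12.38 in the tumours, against 7.91, 7.48 and 7.75 in the cultures (log2 difference 3.17 ± 0.40, adjusted p = 0.000153). Adm, the vasodilator adrenomedullin, rose by 2.24 ± 0.19. Car9, a carbonic anhydrase widely used as a marker of hypoxia, had 8.62, 9.44, 9.97, 8.85 and 7.65 in the tumours, against 10.80, 11.24 and 10.94 in the cultures (log2 difference -2.09 ± 0.41, adjusted p = 0.00281), thus moving against them. The glycolytic enzymes Pkm (-1.14 ± 0.15) and Gapdh (-0.57 ± 0.11) fell, while the actin gene Actb did not pass (-0.03 ± 0.14) and had no settled sign. List means were 8.85, 9.34, 9.68, 9.04 and 9.05 in tumours 1 to 5, against 9.11, 9.20 and 9.18 in the cultures, highest in tumour 3.

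Lists of genes set by hormones, nutrients and time of day are read beside the 12.4% of all genes that were higher and the 18.3% that were lower. Of 18 glucocorticoid and FOXO targets 10 rose and 1 fell. Besides Txnip, the insulin receptor substrate Irs2 rose by 1.60 ± 0.20 and the glucocorticoid-induced chaperone partner Fkbp5 by 1.33 ± 0.19. Of 16 clock genes 2 rose and 7 fell, the first of these being near the share over all genes. Per1, a clock repressor that glucocorticoids also induce, had 10.08, 10.06, 9.97, 10.49 and 10.17 in the tumours, against 8.51, 8.72 and 8.52 in the cultures (log2 difference 1.57 ± 0.13, adjusted p = 1.08e-05). The clock repressors Nr1d1 (-1.20 ± 0.25) and Nr1d2 (-0.68 ± 0.14) and the clock output factor Dbp (-0.92 ± 0.18) fell. Nr1d1 had an adjusted p of 0.0664 with tumours 2 and 3 alone. Of 17 genes of the unfolded protein response 3 rose and 1 fell, and 5 rose without tumour 1 or tumour 3. With every array kept, these counts are near or below the shares over all genes. Xbp1, a factor of secretory cells, rose by 1.04 ± 0.14, Dnajb9 and Herpud1, which aid disposal of misfolded protein, by 0.89 ± 0.16 and 0.89 ± 0.13, and the chaperone Hyou1 fell (-0.46 ± 0.11; adjusted p = 0.0609 with tumours 2 and 3 alone).

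Py8119 tumours against Py8119 cultures share no array with the Py117 comparison. There 3606 genes were higher (16.3%) and 4628 lower (20.9%). Of the 1331 genes at least 2-fold higher in Py117 tumours 1004 (75.4%) were also higher in Py8119 tumours, and of the 788 lower genes 548 (69.5%) were lower. At least 2-fold in both lines were 689 higher genes, 51.8% of those in Py117 and 63.7% of those in Py8119, and 204 lower genes, 25.9% and 42.9% of each. The interaction tests whether the difference between tumour and culture was larger or smaller in Py117 than in Py8119. It was positive at 1328 genes (5.99%) and negative at 1664 (7.50%).

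**Figure D4:**
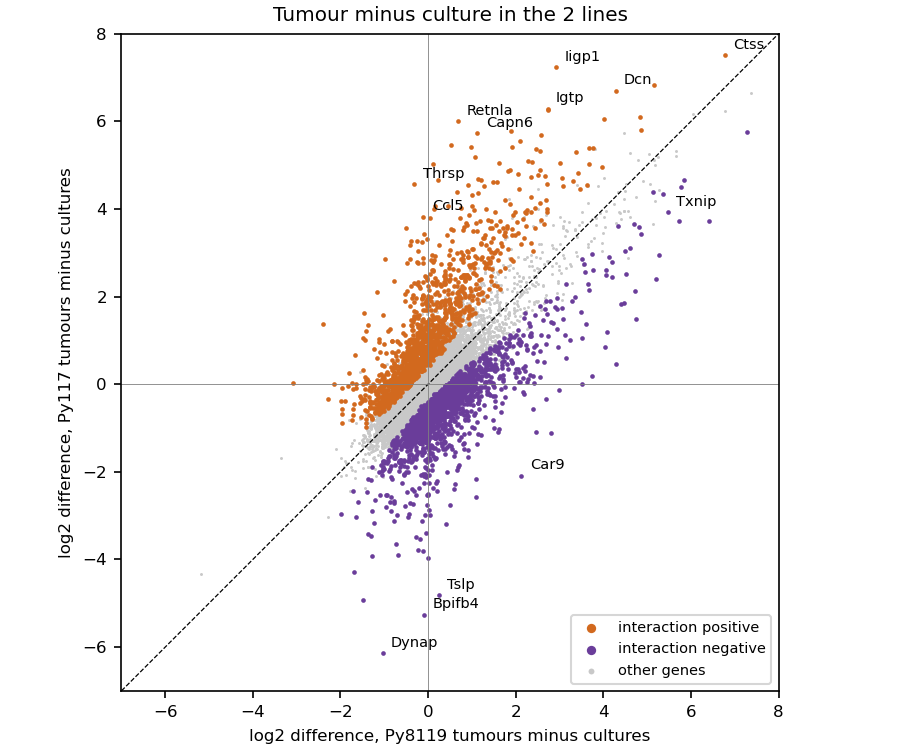
Log2 difference of tumour minus culture in Py117 (vertical axis) against the same in Py8119 (horizontal axis), 1 point per gene for 22180 genes; genes with a positive (1328) or negative (1664) interaction at an adjusted p under 0.05 are coloured and the dashed line marks equal differences. The macrophage gene Ctss lies slightly above the line (interaction 0.73), the interferon gene Igtp far above it, and Tslp and Car9 below it.

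Leukocyte and macrophage genes rose in both lines, with medians in Py117 and Py8119 of 3.09 and 2.92 for leukocyte and 3.62 and 4.40 for macrophage genes. Of 13 leukocyte genes 1 had a positive and 1 a negative interaction, and of 27 macrophage genes 3 and 11 had. In contrast, 24 of 29 interferon genes and 12 of 17 MHC class I genes had a positive and none a negative interaction, with median differences in Py117 and Py8119 of 3.27 and 1.21 for the interferon list. Igtp rose by 6.29 in Py117 and 2.73 in Py8119 (interaction 3.56 ± 0.52, adjusted p = 0.000141). Ccl5 rose by 3.82 in Py117, against a difference of -0.11 in Py8119 (interaction 3.93 ± 0.35, adjusted p = 8.66e-07). Py8119 cultures already had a high Ccl5 mean, 9.24 beside 9.14 in Py8119 tumours. In Py117 the means were 6.31 in cultures and 10.13 in tumours. The interaction was also positive for 17 of 22 fibroblast genes (1 negative), 14 of 22 endothelial genes and 7 of 17 T cell genes.

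The most positive interactions were Retnla (5.32 ± 1.04, adjusted p = 0.00194), a secreted protein of alternatively activated macrophages and fat, the guanylate-binding protein Gbp4 (4.93 ± 0.78, adjusted p = 0.000307), Scrg1 (4.92 ± 0.40, adjusted p = 4.5e-07), the lipogenic Thrsp (4.88 ± 0.35, adjusted p = 1.1e-07) and Capn6 (4.60 ± 0.39, adjusted p = 5.18e-07). Retnla had 10.23, 10.10, 9.51, 7.58 and 12.01 in the tumours, against 4.07, 3.30 and 4.25 in the cultures and Thrsp had 10.85, 10.50, 10.44, 10.69 and 10.55 in the tumours, against 6.59, 5.70 and 5.82 in the cultures. Retnla, Gbp4 and Scrg1 had culture means below the background limit of 5.38 in both lines, so their interactions include differences between background values and have no settled order. Gbp4 had a mean of 8.93 in Py117 tumours and 3.47 in Py117 cultures, beside 5.33 in Py8119 tumours and 4.81 in Py8119 cultures. In lists with more lower than higher genes, the interaction was negative for 12 of 19 cholesterol genes, whose median in Py8119 was -0.13. It was also negative for 8 of 17 immediate early genes and for 10 of 30 epithelial genes. Cell cycle and ribosome biogenesis genes had 3 negative interactions each, of 33 and 23, 2 ribosome biogenesis genes had a positive one, and in Py8119 tumours 33 and 21 of them were lower. The most negative interactions were Bpifb4 (-5.17 ± 0.26, adjusted p = 2.79e-09), Dynap (-5.11 ± 0.30, adjusted p = 1.35e-08), Tslp (-5.06 ± 0.29, adjusted p = 1.35e-08), Car9 (-4.22 ± 0.57, adjusted p = 7.17e-05) and Bpifb3 (-3.96 ± 0.24, adjusted p = 2.14e-08). Car9 differed by -2.09 in Py117 and by 2.13 in Py8119. Bpifb4 and Bpifb3 were below the background limit in Py8119 cultures (means 5.15 and 5.02) and tumours (5.06 and 5.01). Little room was left to fall there. Tslp was also low in Py8119 (5.61 in cultures and 5.85 in tumours), while Dynap was high (11.27 and 10.24). The epithelial genes Cldn3, Krt7 and Ocln, each lower in Py117 tumours and with a negative interaction, had Py8119 culture means of 6.76, 5.84 and 5.12. Cdh1 (5.53 in Py8119 cultures) also had a negative interaction (-1.46), but it did not fall in Py117. Its difference there was -0.10 and did not pass, while in Py8119 it rose by 1.36.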

How the data were processed

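RNA of 21 samples was measured on Affymetrix whole-transcript arrays with the WT PLUS assay, per the labels' protocols. RMA, which the submitters' processing notes name beside limma, gave the deposited log2 values of the authors, and neither versions nor settings are given in the sources used here. From 41345 probe sets, the 23521 with 1 symbol were kept, leaving aside 1814 with more symbols and 16010 without. Where a gene had more than 1 (1082 genes), the brightest over all 21 arrays stood for it, so 22180 genes remained.

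The 8 Py117 arrays, or 16 arrays for the interaction, were fitted with lmFit and eBayes of limma 3.58.1 (R 4.3.3), with p-values adjusted by Benjamini and Hochberg over the 22180 genes and a threshold of 0.05. The number of arrays limits the precision. In simulated data, 68% of 100 genes with a log2 change of 1 and 8% of 100 with 0.5 were recovered for tumour minus culture, and 59% and 3% for the interaction. Only these genes of the 22180 were changed, with a spread pooled over the 16 arrays of both lines. In the real comparison 30.7% of genes were called, which makes the adjustment less strict. The percentages therefore do not give the recovery in the real comparison.

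The gene lists and markers were chosen with earlier results of these data known. Named genes were those with the largest called, non-overlapping differences from background (12), from expressed levels (12 higher, 10 lower) and down to background (8), up to 4 per list, 10 fixed genes and the 5 most positive and 5 most negative interactions. The 20 largest increases among clearly expressed genes, the upper background limit and the genes Adipoq, Arg1, Ccl20, Ccne1, Cd14, Cdh2, Col18a1, Csn2, Cxcl10, Cxcl3, Gbp3, Ifit3, Isg15, Lama5, S100a9, Snai1 and Vwf were added after their values were seen. Figures were drawn with matplotlib 3.10.9. Alternatives covered scaling, filters, probe set choice, priors, array weights, a replicate block and left-out arrays.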

Additional observations from a re-analysis of the deposited data

Results flagged for a closer look

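Among 187 named genes and 41 list means, a tumour at either end lay farther from the nearest other tumour than Dixon's critical value for 5 samples allows (gap over range, given in parentheses) for 11 genes and 3 lists, and chance flags about 1 in 20 groups. Tumour 3 was the lowest for Cdh5 (0.723), Irs2 (0.757), Mki67 (0.828) and Muc15 (0.849) and the highest for Lgals3bp (0.741) and Tslp (0.715). Tumour 5 was the highest for Cd14 (0.714), Cxcl5 (0.833), Egln3 (0.848), Krt8 (0.750) and the NRF2 list (0.732). Tumour 2 was the highest for Acta2 (0.837), and tumour 1 the lowest for the lymphatic endothelial (0.755) and unfolded protein response lists (0.746).

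The difference between tumour and culture itself differed between Py117 and Py8119 by limma's interaction test at 1328 genes in the positive and 1664 in the negative direction. Of the genes named for it, the interaction was 5.32 for Retnla, 4.93 for Gbp4, 4.92 for Scrg1, 4.88 for Thrsp, 4.60 for Capn6, 3.93 for Ccl5 and 3.56 for Igtp. It was -5.17 for Bpifb4, -5.11 for Dynap, -5.06 for Tslp, -4.22 for Car9 and -3.96 for Bpifb3. No explanation of these values was tested.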

How the results depend on the processing

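Alternatives left the direction of every called gene named above, and the counts moved as follows. Median centring gave 7529 lower genes in place of 4052, and a threshold of 0.01 gave 2527. Genes at background in culture and at least 2-fold higher numbered 281 with dim genes left out, 295 with the 90th and 971 with the 99th percentile as background limit, against 511, and those expressed in culture 360 with the 99th, against 820. The interaction was positive at 712 and negative at 962 genes at a threshold of 0.01.

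Leaving out 1 array at a time gave 2187 to 3231 higher and 2969 to 4569 lower genes. At least 2-fold, it gave 1282 to 1411 higher and 712 to 839 lower genes. By class these were 487 to 544 at background and 772 to 867 expressed and higher, and 699 to 823 expressed and lower. The interaction counts were 998 to 1790 positive and 1283 to 1858 negative. Without tumours 1, 4 and 5 together, 2348 genes were higher and 3634 lower.

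Culture and tumour arrays share replicate numbers in their titles, but same-numbered arrays correlated in their deviations at only 0.06, -0.08 and 0.23, so the numbers were not taken as pairs. With a replicate block, 2284 genes were higher and 3163 lower, and the interaction was positive at 791 and negative at 1078.

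Signs turned only for genes that did not pass. Actb was 0.0666 under quantile normalization, 0.0530 when centred on genes expressed in every group, 0.0400 without tumours 1, 4 and 5, and -0.211 to 0.0694 without 1 array. Cdh1 was 0.0892 as the mean of all probe sets and Vim -0.0660 under median centring. S100a9 was -0.0234 under median centring, -0.0221 with array weights and -0.0208 to 0.265 without 1 array.

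No hybridization batch is given, low signals sit on background, and RNA of host and tumour cells was not separated.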
